A study of Rattus norvegicus with 8 samples.

Results

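The contractile proteins of arterial smooth muscle were followed through 10 genes, Myh11, Acta2, Actg2, Tagln, Cnn1, Smtn, Lmod1, Mylk, Synpo2 and Des. They were chosen by name from the 37209 genes of the count table. All 10 were found there under these symbols, and all 10 were among the 14359 genes with enough counts for the test. Messenger RNA had been sequenced from carotid arteries of male Sprague-Dawley rats. The left common carotid artery had its intima injured with a balloon catheter, and both arteries were collected 2 weeks later. The injured group comprised 4 left arteries, and the control group comprised 4 right arteries of operated animals, which had not been ballooned. No genotype, transgene or drug distinguished the groups, and the rats' age is not given in the labels. The comparison addressed how the artery wall differed from its contralateral control after intimal injury.

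Smooth muscle shortens when myosin filaments pull on actin filaments. Calcium-bound calmodulin activates myosin light chain kinase, which phosphorylates the regulatory light chain and starts the cycle, and a myosin phosphatase ends it. The actin filaments are anchored in dense bodies and in adhesion plaques at the membrane, linked by intermediate filaments. In the artery wall these proteins mark the differentiated muscle cell of the media, and vascular smooth muscle cells (VSMCs) are known to express less of them when they divide and migrate after injury.

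Control libraries held 13470754 to 15276952 counts and injured libraries 11459632 to 16658089. Levels are given as CPM, the number of counts relative to a library total corrected with TMM factors, and 3 counts corresponded to 0.18 to 0.262 CPM, a floor that covers counting error only. Control artery 4 stood apart. Across genes its log2 CPM correlated with the other controls at 0.843 to 0.859, whereas controls 1 to 3 correlated with each other at 0.984 to 0.985. The summed level of 10 neuron markers was 11668 CPM in control artery 4 and 5.09 to 8.45 CPM in the other controls. Injured artery 3 had 3241 CPM of the same markers, with 14.9 to 213 CPM in the rest of its group. The extraction text of the labels speaks of brain tissue, while the remaining labels name the carotid artery. The 10 contractile genes together took 3.89% to 5.02% of all counts in controls 1 to 3. Their share was 1.879% in control artery 4 (exact 95% binomial interval 1.872% to 1.886%, counting error only) and 1.24% to 1.97% in the injured arteries. As control artery 4 stood apart across genes, the main values below are also given without it. It was the lowest control for all 10 contractile genes. Leaving it out was thus bound to deepen their falls, and those values are no separate support.

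The summed level of the 10 contractile genes was lower after injury. It was 55233, 47683, 41028 and 19084 CPM in control arteries 1 to 4, and 18257, 15546, 11616 and 14557 CPM in injured arteries 1 to 4. The mean was 40757 ± 15570 CPM (SD, n = 4) in the controls and 14994 ± 2742 CPM (SD, n = 4) after injury. Each injured artery lay below each control, but control artery 4 was much nearer to the injured arteries than to the other controls. In whole arteries, fewer muscle cells and less RNA per muscle cell cannot be told apart.

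**Figure D1:**
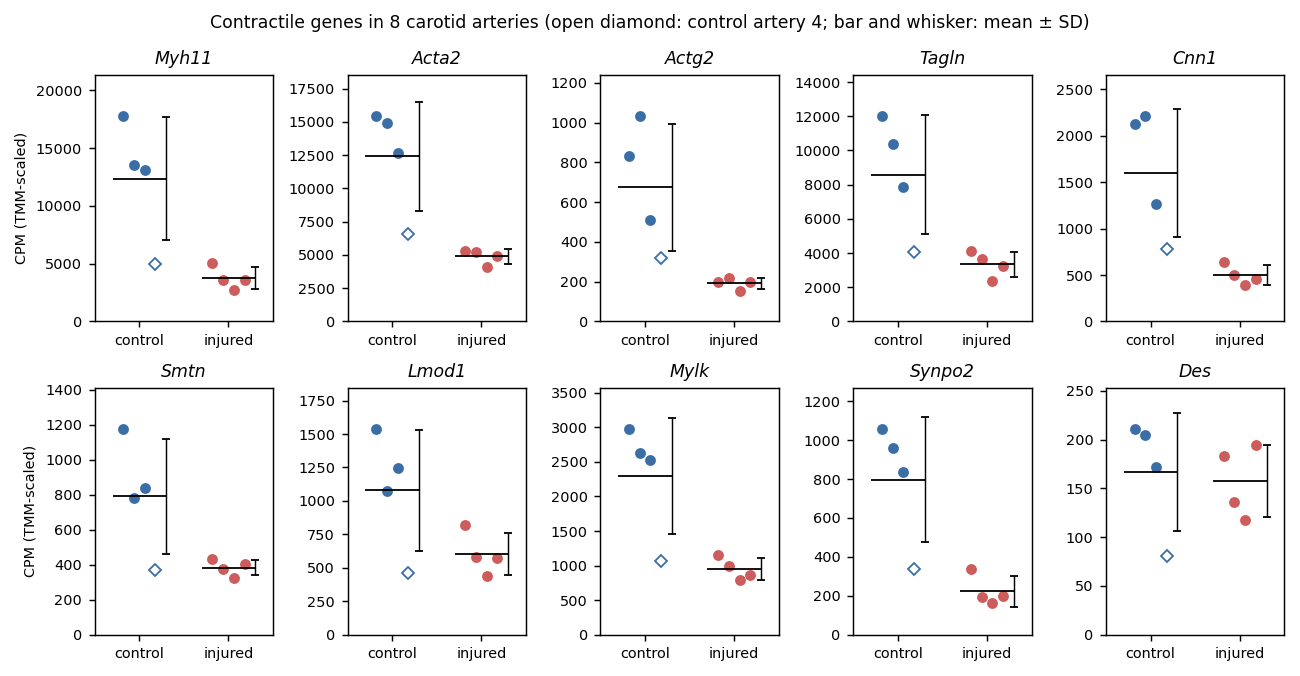
Level of each contractile gene (vertical axis, CPM, linear from 0) in the 4 control and 4 injured arteries. Each point is an artery, the bar and whisker give the mean ± SD, and the open diamond is control artery 4, which was the lowest control in all 10 panels; in 6 of them it lay within the injured range.

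Many smooth muscle genes carry a CArG box near their start, the site that serum response factor binds together with myocardin. Windows of 300 bases around the gene start, 250 before and 50 after it, were available for 7 members in the RefSeq annotation of rat assembly GRCr8. Myh11, Tagln and Lmod1 were not matched. The exact 10-base CArG box was found in 0 of the 7 windows and in 1.64% of all 33469 windows. With 1 mismatch allowed it was found in 2 of the 7 (28.6%), Acta2 and Smtn, and in 21.3% of all windows. The motif is its own reverse complement, so both strands were read. The 3 matches are shown because Acta2 and Smtn stand on opposite sides of the call described below. Capitals mark the match, each sequence is written 5′ to 3′ on the strand of the gene, and its position counts from the gene start.
Acta2, chr1:241172618-241172647, minus strand, match starting at position -134: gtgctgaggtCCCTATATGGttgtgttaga
Acta2, chr1:241172568-241172597, minus strand, match starting at position -84: tgtctttgctCCTTGTTTGGgaagcgagtg
Smtn, chr14:82644605-82644634, minus strand, match starting at position -110: aggggcggggCCTAAAATTGaattttccca
A match describes the letters of these windows, and no binding was measured.

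Myh11 encodes the smooth muscle myosin heavy chain, the motor of the thick filament. It had 17816, 13525, 13111 and 5013 CPM in control arteries 1 to 4, and 5060, 3631, 2739 and 3552 CPM in injured arteries 1 to 4. The injured arteries were all below controls 1 to 3, and only injured artery 1 lay above control artery 4. The mean fell from 12366 ± 5344 CPM to 3746 ± 965 CPM (SD, n = 4 each). The log2 fold change was -1.72 ± 0.40 (SE), at an FDR of 0.0222 (Benjamini-Hochberg) by the quasi-likelihood test of edgeR. The exact two-sided permutation test over the 70 relabellings gave p = 0.0571 for the overlapping groups, where 0.0286 is the smallest p that 4 against 4 arteries allow. Leaving out control artery 4 gave -1.99 ± 0.22 (SE).

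Acta2 encodes vascular smooth muscle actin, the main actin of the thin filament in the media. Its level was 15466, 14895, 12654 and 6579 CPM in control arteries 1 to 4, and 5321, 5248, 4110 and 4886 CPM in injured arteries 1 to 4. Each control lay above each injured artery, and the injured arteries were close together, with a coefficient of variation of 11.3%. The mean was 12399 ± 4065 CPM in the controls and 4891 ± 554 CPM after injury (SD, n = 4 each), which was 2.53-fold lower in the fit. Acta2 had a log2 fold change of -1.34 ± 0.30 (SE; edgeR FDR 0.0193; exact permutation p = 0.0286). With controls 1 to 3 alone the value was -1.56 ± 0.14 (SE).

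Actg2 encodes the second smooth muscle actin, best known from visceral muscle. Control arteries 1 to 4 had 835, 1035, 510 and 321 CPM, and injured arteries 1 to 4 had 199, 218, 153 and 196 CPM. All 4 injured arteries lay below the lowest control. The mean was 675 ± 320 CPM in the controls and 191 ± 27.5 CPM after injury (SD, n = 4 each). The log2 fold change was -1.82 ± 0.35 (SE; edgeR FDR 0.0105; exact permutation p = 0.0286), and -2.06 without control artery 4. The coding sequences of the actins are nearly identical, and how reads matching several genes were counted is not given in the sources used here, so the split between actin genes is uncertain.

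Tagln encodes transgelin, also called SM22α, an actin-binding protein of the calponin family. Its level was 12033, 10366, 7875 and 4072 CPM in control arteries 1 to 4, and 4109, 3660, 2393 and 3227 CPM in injured arteries 1 to 4. Injured artery 1 was slightly above control artery 4, and no other values of the groups crossed. The log2 fold change was -1.36 ± 0.36 (SE; edgeR FDR 0.0348; exact permutation p = 0.0571). It was -1.60 without control artery 4.

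Cnn1 encodes calponin 1, which binds actin and inhibits the myosin ATPase. Control arteries 1 to 4 had 2124, 2215, 1266 and 784 CPM, and injured arteries 1 to 4 had 640, 504, 391 and 452 CPM. The groups did not overlap, although controls 3 and 4 were well below controls 1 and 2. The mean was 1597 ± 691 CPM in the controls and 497 ± 106 CPM after injury (SD, n = 4 each). The fitted difference for Cnn1 was -1.69 ± 0.35 on the log2 scale (SE; edgeR FDR 0.0136; exact permutation p = 0.0286), and -1.92 without control artery 4.

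Smtn encodes smoothelin, an actin-associated protein of fully contractile muscle cells. Its level was 1176, 781, 837 and 371 CPM in control arteries 1 to 4, and 430, 376, 325 and 404 CPM in injured arteries 1 to 4. Control artery 4 lay inside the injured range, below 3 of the 4 injured arteries. The log2 fold change of -1.04 ± 0.31 (SE) missed the threshold (edgeR FDR 0.0563; exact permutation p = 0.114). The 95% interval of the difference was -1.76 to -0.32 on the log2 scale, for this gene alone. Smtn was called without control artery 4, at -1.28 (edgeR FDR 0.00131), and over all alternatives its FDR ranged from 0.00113 to 0.139.

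Lmod1 encodes leiomodin 1, which nucleates actin filaments in smooth muscle. Control arteries 1 to 4 had 1537, 1075, 1244 and 464 CPM, and injured arteries 1 to 4 had 821, 578, 439 and 574 CPM. Here too control artery 4 was lower than 3 of the 4 injured arteries. The difference for Lmod1, -0.84 ± 0.36 on the log2 scale (SE; edgeR FDR 0.154; exact permutation p = 0.114), was not called. Its 95% interval was -1.67 to -0.02. It was called without control artery 4, at -1.10 (edgeR FDR 0.00741, within a range of 0.00511 to 0.312 over all alternatives).

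Mylk encodes the myosin light chain kinase and, from an internal promoter, the short protein telokin, which a count per gene does not separate. Its level was 2976, 2625, 2524 and 1064 CPM in control arteries 1 to 4, and 1153, 1001, 787 and 871 CPM in injured arteries 1 to 4. Controls 1 to 3 were within a narrow range, with a coefficient of variation of 8.77%, and control artery 4 fell between injured arteries 1 and 2. The mean was 2297 ± 845 CPM in the controls and 953 ± 159 CPM after injury (SD, n = 4 each). The log2 fold change was -1.27 ± 0.32 (SE; edgeR FDR 0.029; exact permutation p = 0.0571), and -1.51 without control artery 4.

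Synpo2 encodes synaptopodin 2, or myopodin, an actin-bundling protein of dense bodies and Z-discs. Control arteries 1 to 4 had 1057, 962, 834 and 336 CPM, and injured arteries 1 to 4 had 340, 195, 161 and 200 CPM. Injured artery 1 was just above control artery 4, and the other injured arteries were below all controls. Synpo2 had the most negative fitted value of the 10 genes, a log2 fold change of -1.83 ± 0.39 (SE; edgeR FDR 0.0152; exact permutation p = 0.0571). Its standard error spans the values of Actg2, Myh11 and Cnn1. It was -2.09 without control artery 4.

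Des encodes desmin, the intermediate filament protein that links dense bodies in smooth muscle and Z-discs in striated muscle. Its level was 211, 205, 172 and 80.5 CPM in control arteries 1 to 4, and 183, 136, 118 and 195 CPM in injured arteries 1 to 4. The groups overlapped throughout, and injured artery 4 exceeded 2 of the controls. The mean was 167 ± 60.2 CPM in the controls and 158 ± 36.9 CPM after injury (SD, n = 4 each). No difference was detected, at -0.08 ± 0.31 on the log2 scale (SE; edgeR FDR 0.885; exact permutation p = 0.971), and the sign turned, to 0.12, when libraries were scaled by their totals alone. The 95% interval ran from -0.79 to 0.63, and from -0.74 to 0.11 around the value of -0.31 without control artery 4, so a moderate fall is within it.

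Counted together, 7 of the 10 contractile genes passed an FDR under 0.05 with a fold change above 2, and all 7 were lower after injury. Over all genes tested, 2.57% were called lower and 8.31% higher. None of the 10 was called higher by edgeR or DESeq2, and none was positive at an unadjusted p under 0.05. The median log2 fold change of the 10 genes was -1.35, beside -0.06 over all genes tested. Acta2, Cnn1 and Actg2, 3 of the 10, had every injured artery below every control, which held for 9.51% of all genes. The count of 7 depended on single libraries. Without injured artery 1, 2, 3 or 4 it was 4, 2, 3 or 1, beside 2.05%, 1.36%, 2.57% and 1.33% of all genes called lower. It was 3 without each of control arteries 1, 2 and 3, beside 1.87%, 1.52% and 1.76%. Without control artery 4 it was 9, all but Des, where 3.94% of all genes were called lower, and the median was -1.58. The same 9 genes then had every injured artery below each remaining control, as did 18.1% of all genes. Actg2 was called in all 8 of these fits, Cnn1 in 7, Synpo2 in 6 and Myh11 in 2, and Acta2, Tagln, Mylk, Smtn and Lmod1 in 1, the fit without control artery 4. With both control artery 4 and injured artery 3 left out, the 2 arteries with the highest neuron marker sums, 8 of the 10 were called lower beside 4.68% of all genes, a choice made after the data were seen. Lmod1 and Des were then not called, with log2 fold changes of -0.97 and -0.19.

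**Figure D2:**
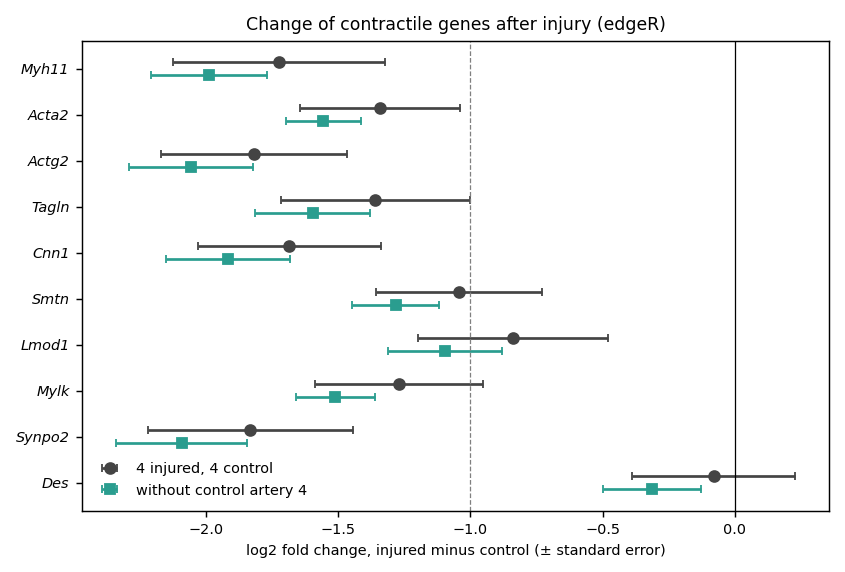
Fitted log2 fold change (horizontal axis, injured minus control) of each contractile gene with its standard error, from all 8 arteries (circles) and without control artery 4 (squares). The dashed line marks a 2-fold fall. Control artery 4 was the lowest control for all 10 genes, so without it the values were bound to be more negative. They then run from -2.09 for Synpo2 to -0.31 for Des, with smaller errors.

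The arteries kept a similar rank across the contractile genes. Control artery 4 was the lowest control for all 10, at 33.8% of the mean of controls 1 to 3 for Myh11 and up to 45.9% for Acta2. It lay within the injured range for 6 genes, Myh11, Tagln, Smtn, Lmod1, Synpo2 and Mylk. Control artery 1 was the highest control for 8 genes, and control artery 2 was highest for Cnn1 and Actg2. Injured artery 3 was the lowest injured artery for all 10 genes. Injured artery 1 was the highest of its group for 8, with injured artery 2 highest for Actg2 and injured artery 4 for Des. The 2 arteries lowest in their group for the contractile genes were the 2 with the highest neuron marker sums, whose part in these levels was not tested.

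Ratios of 2 genes within a library do not depend on the scaling between libraries. Acta2, Myh11, Tagln, Cnn1 and Des were set against relatives outside the member list, on the log2 scale after adding 1 CPM, in 8 pairs. The ratio of Acta2 to the cytoplasmic actin Actb was 2.23, 2.26, 2.38 and 1.83 in control arteries 1 to 4 and 0.95, 1.13, 0.83 and 1.11 in injured arteries 1 to 4. Control artery 4 was low but stayed above all injured arteries, and the difference of the means was -1.17. Myh11 to the non-muscle myosin Myh10 gave 3.96, 3.77, 3.78 and 2.97 in the controls and 2.67, 1.78, 1.84 and 2.16 after injury, a difference of -1.51. Cnn1 to the broadly expressed calponin Cnn2 gave 4.39, 4.59, 3.94 and 4.08 in the controls and 2.81, 2.11, 2.24 and 2.26 after injury, a difference of -1.90. In these 3 pairs the groups did not overlap, the exact permutation p was 0.0286 and the value adjusted over the 8 pairs was 0.0571, so none passed 0.05 after adjustment. For Cnn1 to Cnn2, control artery 4 lay inside the range of the other controls. With control artery 4 left out the 3 differences were -1.29, -1.725 and -1.95.

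Other pairs overlapped between the groups. Tagln to Tagln2 differed by -1.41 (exact permutation p = 0.0857), with 2.92 in control artery 4 and 4.51 to 5.18 in the other controls. Cnn1 to Cnn3 differed by -1.004 (exact permutation p = 0.0571), a smaller difference than to Cnn2. Cnn3 itself was lower after injury, at 636 ± 88.4 CPM in the controls and 423 ± 45.4 CPM after injury, with an edgeR FDR of 0.0313 but less than a 2-fold change. Acta2 to the cytoplasmic actin Actg1 differed by -1.06 (exact permutation p = 0.114). Des to vimentin, Vim, the intermediate filament protein of mesenchymal cells, differed by -0.49 (exact permutation p = 0.0857). Vim was 2440 ± 574 CPM in the controls and 3328 ± 306 CPM after injury and was not called. Myh9 had only 2 to 13 counts per library, so no value is given for its pair with Myh11.

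Set against Acta2, the members did not all move alike. Des to Acta2 was -6.19, -6.18, -6.19 and -6.34 in control arteries 1 to 4 and -4.85, -5.26, -5.11 and -4.64 in injured arteries 1 to 4. All injured arteries were above all controls, by 1.26 on the log2 scale, and control artery 4 was here close to the other controls. Lmod1 to Acta2 was -3.33, -3.79, -3.35 and -3.82 in the controls and -2.69, -3.18, -3.22 and -3.09 after injury. It was higher by 0.53, again with no overlap. The differences were 1.22 and 0.44 without control artery 4. Both ratios had an exact permutation p of 0.0286 and an adjusted value of 0.103 over the 9 ratios to Acta2, which is above 0.05. Tagln to Acta2 differed by -0.002 and Mylk to Acta2 by 0.09, with exact permutation p of 0.971 and 0.371. The ratios of Synpo2, Actg2, Myh11 and Cnn1 were lower by 0.49, 0.41, 0.34 and 0.31 in size, and that of Smtn was higher by 0.34, all with overlapping groups. The 9 ratios share their denominator.

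**Figure D3:**
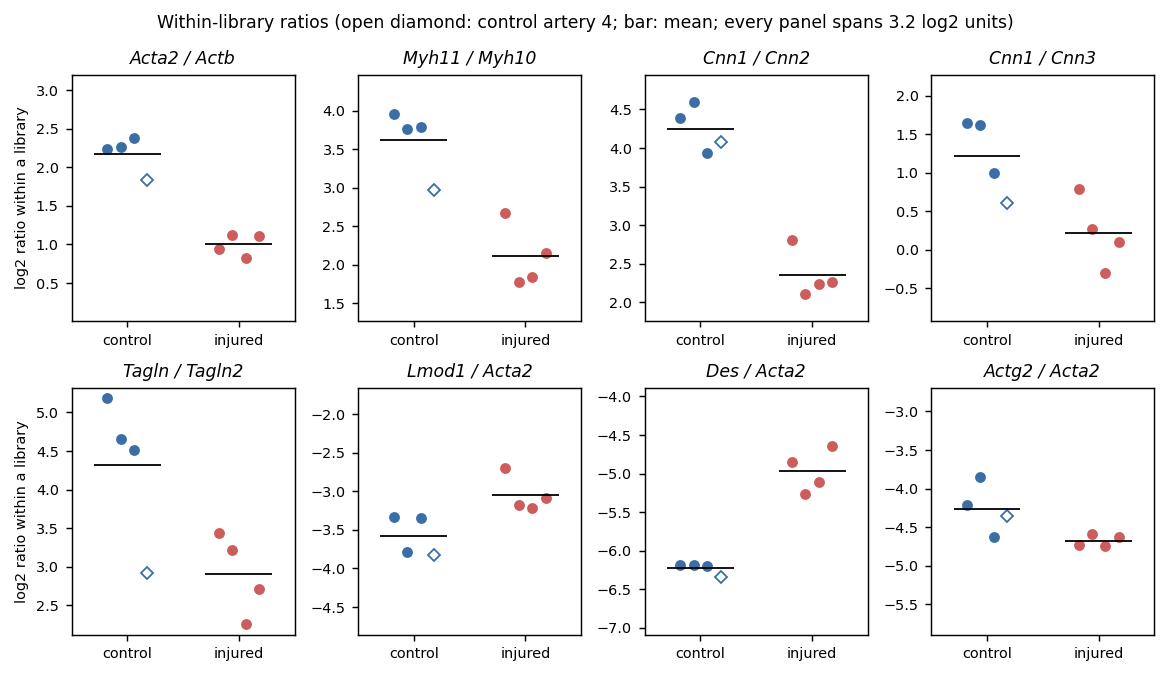
Within-library log2 ratios (vertical axis, each panel spanning the same height in log2 units) of contractile genes to a relative or to Acta2, by artery, with group means as bars and control artery 4 as an open diamond. Acta2 to Actb, Myh11 to Myh10 and Cnn1 to Cnn2 were lower in every injured artery, while Lmod1 and Des were higher relative to Acta2 in every injured artery.

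Other proteins of the contractile machinery were counted from 3 lists, where 2.57% of all genes were called lower and 8.31% higher. Of 13 thin filament and myosin light chain genes, 1 was called lower, Myl9, the regulatory light chain of smooth muscle myosin. Myl9 had 3073, 2937, 2674 and 1092 CPM in control arteries 1 to 4 and 971, 911, 665 and 835 CPM in injured arteries 1 to 4, a log2 fold change of -1.53 ± 0.33 (SE; edgeR FDR 0.0157). The median of this list was -0.45, and without control artery 4 the count was 3, beside 3.94% of all genes called lower. Named after their values were seen, the tropomyosins Tpm3 and Tpm4 were higher in every injured artery, by 0.85 and 0.77 on the log2 scale (edgeR FDR 0.00348 and 0.0253), less than a 2-fold change. They are the 2 genes of these lists that were positive at an unadjusted p under 0.05, and no gene of the lists was called higher by edgeR or DESeq2.

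Of 13 regulators of myosin phosphorylation, 4 were called lower, beside 2.57% of all genes. All 13 had a negative value, as did 54.8% of all genes tested. Ppp1r12c, Ppp1r12b and Ppp1r12a encode myosin-binding subunits of the phosphatase that removes the activating phosphate. Their log2 fold changes were -1.12, -1.55 and -1.01 (edgeR FDR 0.00585, 0.00933 and 0.0352). Ppp1r14a, the phosphatase inhibitor CPI-17, had a log2 fold change of -1.25 (edgeR FDR 0.0466). Phosphatase subunits, an inhibitor of that phosphatase and the kinase Mylk were thus all lower after injury. The list's median was -0.59, and without control artery 4 the count was 6, beside 3.94% of all genes called lower.

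Dense bodies, adhesion plaques and costameres were represented by 21 genes, of which 18 could be tested, while Flna, Dmd and Fhl1 were listed at 0 counts in all libraries. In this list 6 genes were called lower, beside 2.57% of all genes, and all 18 values were negative, with a median of -0.70. Of all genes tested 54.8% had a negative value. Pgm5, an adhesion plaque protein, had 291, 380, 335 and 163 CPM in control arteries 1 to 4 and 90.1, 80.2, 85.4 and 107 CPM in injured arteries 1 to 4. Its log2 fold change was -1.69 (edgeR FDR 0.00366). Synm, synemin, which forms filaments with desmin, had 392, 375, 390 and 410 CPM in control arteries 1 to 4 and 173, 116, 191 and 154 CPM after injury, and in contrast to the members its level in control artery 4 was the highest of the controls. Synm fell by 1.31 on the log2 scale (edgeR FDR 0.00166). The focal adhesion protein Tns1, the LIM proteins Csrp1 and Pdlim3 and the integrin subunit Itga8 had log2 fold changes of -1.42, -1.34, -1.22 and -1.32 (edgeR FDR 0.0104, 0.0137, 0.0138 and 0.0393). The count was 7 without control artery 4, beside 3.94% of all genes called lower.

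**Figure D4:**
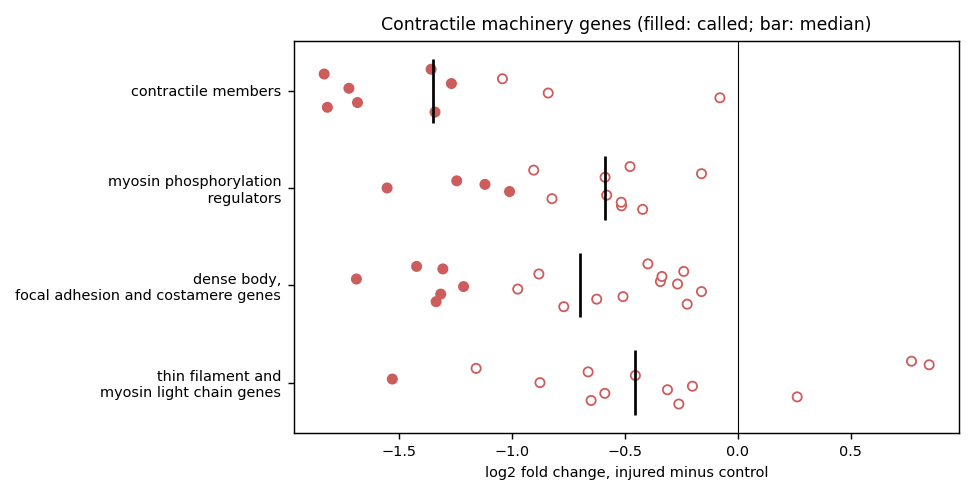
Log2 fold change (horizontal axis, injured minus control) of each tested gene of the contractile set and of 3 lists of the contractile machinery, with the median as a bar. Filled points passed the FDR and the 2-fold threshold. They number 7, 4, 6 and 1 from top to bottom, all on the lower side, beside 2.57% of all genes called lower.

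Among 16 testable paralogs of the members the median was 0.02. Here 2 were called lower and 1 higher, beside 2.57% and 8.31% of all genes, and these 3 were named because they were called. Actc1, the cardiac actin gene, had a log2 fold change of -2.43 and Mylk3, a cardiac light chain kinase, of -1.52. Lmod3 had 0 counts in every control and 0.73 to 4.50 CPM after injury. The non-muscle relatives Actb, Actg1, Myh10, Tagln2 and Cnn2 were not called, with values between -0.22 and 0.26. Cnn3 and Vim, not called either, lay outside that range, at -0.59 (edgeR FDR 0.0313) and 0.45 (edgeR FDR 0.198). In the myocardin and serum response factor list, 8 genes were tested, and their median was -0.09. Myocd, the coactivator myocardin, had 186, 317, 149 and 65.1 CPM in control arteries 1 to 4 and 44.4, 78.8, 42.7 and 45.6 CPM in injured arteries 1 to 4, a log2 fold change of -1.76 ± 0.45 (SE; edgeR FDR 0.0319). Klf5, a transcription factor known from activated smooth muscle, was low but higher in every injured artery, at 0.86 to 2.43 CPM in the controls and 4.93 to 7.61 CPM after injury, with a log2 fold change of 2.01 (edgeR FDR 0.00579). Srf itself, named outside the rule for its role, was not called, at 194 ± 70.4 CPM and 149 ± 42.6 CPM (SD, n = 4 each). Elk1 and Foxo4 were listed at 0 counts in all libraries.

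The genes whose level followed the mean profile of the 10 members most closely over the 8 arteries were Rasl12, Thsd4, Itga8, Csrp1, Hspb6 and LOC686753. Likeness was the root mean square difference between log2 CPM profiles, each centred on its mean, and it was 0.065 for Rasl12 and 0.098 to 0.124 for the others. Among the members it ranged from 0.084 for Tagln to 0.614 for Des. Rasl12, a small GTPase of the Ras family, had 314, 252, 216 and 101 CPM in control arteries 1 to 4 and 111, 80.6, 70.5 and 90.7 CPM in injured arteries 1 to 4. As for the members, control artery 4 lay beside the injured arteries and injured artery 3 was lowest. Hspb6, a small heat shock protein of muscle, had a log2 fold change of -1.46 and Thsd4, a matrix protein, of -1.38. These libraries share the offset of control artery 4, so the likeness is a description.

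Markers of other cells in the artery moved with the groups in different ways. Of 12 skeletal muscle markers, 9 were called higher, beside 8.31% of all genes. The summed level of the 12 was 110 to 333 CPM in the controls and 352 to 1250 CPM after injury. Myh1, a fast skeletal myosin, was at 0.07 to 0.42 CPM in the controls and at 79.5 to 220 CPM after injury. Acta1, the skeletal actin, was at 61.9 to 194 CPM and 107 to 336 CPM, with overlapping groups. Acta1, Ckm and Pygm were the markers not called (edgeR FDR 0.213, 0.171 and 0.322), and Pygm had a negative value, -0.67. Within the injured group the summed skeletal markers ranked artery 4, 1, 2 and 3, at 1250, 857, 497 and 352 CPM. Des, which skeletal muscle also expresses, ranked the same arteries in the same order, at 195, 183, 136 and 118 CPM, and the part of skeletal muscle RNA in the level of Des was not tested. In the controls both ranked artery 1, 2, 3 and 4, as did the summed level of the 10 contractile genes. Acta1 was the largest part of the skeletal sum in each artery of both groups. Myh1, near the floor, ranked the controls the other way, at 0.07, 0.25, 0.28 and 0.42 CPM in arteries 1 to 4.

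The counts called in the next lists stand beside 8.31% of all genes called higher and 2.57% called lower. Of 10 macrophage markers, 9 were called higher. Their list had a summed level of 215 to 319 CPM in the controls and 1874 to 2744 CPM after injury. Lyz2 and Csf1r were the most abundant, with log2 fold changes of 4.38 and 2.00. All 9 proliferation markers were called higher, with a summed level of 12.5 to 22.6 CPM in the controls and 96.5 to 145 CPM after injury. Mki67 and Top2a, the most abundant of these, had log2 fold changes of 3.60 and 3.51. Endothelial markers were split, with 3 of 10 called higher and 1 lower, Vwf, at -1.65, and a summed level of 924 to 2399 CPM and 862 to 1203 CPM. Pecam1, the second in abundance, was not called. Of 8 adventitial fibroblast markers, 3 were called lower and 1 higher, with a summed level of 10709 to 31729 CPM and 15777 to 25638 CPM. Among them Col1a1 was not called and Dcn fell by 1.15 on the log2 scale. Of 6 adipocyte markers 1, Plin4, was called lower, with a log2 fold change of -1.45 and a summed level of 321 to 905 CPM and 183 to 376 CPM, and Fabp4 was not called. The part of these cell types in the levels of the contractile genes was not tested. The skeletal muscle, macrophage, proliferation and adipocyte lists had calls in 1 direction. In these lists 0 genes were called the other way by edgeR or DESeq2, and 0 had an unadjusted p under 0.05 that way.

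Neuron markers varied between libraries within both groups. None of the 6 testable neuron markers was called by edgeR or DESeq2, and none had an unadjusted p under 0.05. The neuron median was -1.99 with all arteries and 6.99 without control artery 4. In the fit without control artery 4, 2 of the 6 were called higher, beside 1817 of all 14758 genes tested. Dbh and Prph, the most abundant, had 3343 and 2298 CPM in control artery 4 and 376 and 1237 CPM in injured artery 3.

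**Figure D5:**
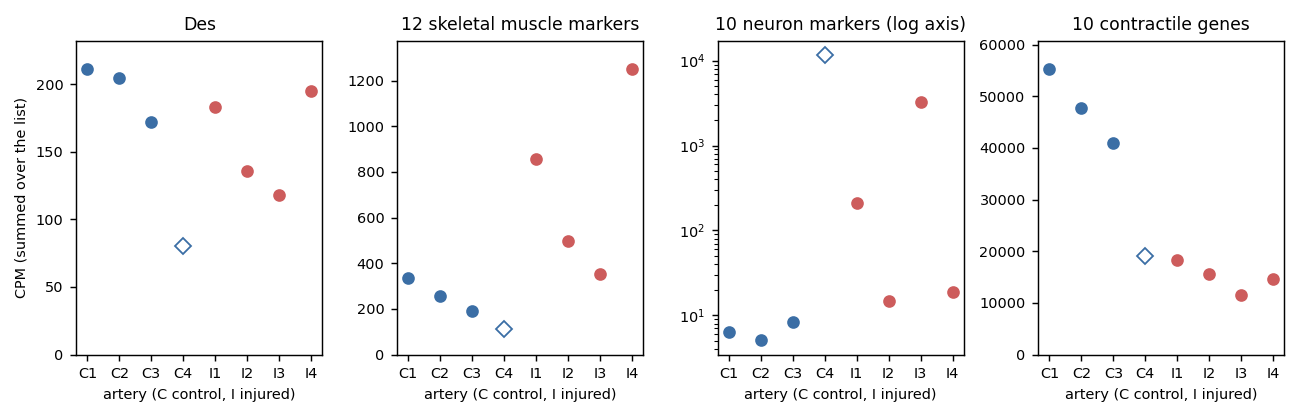
Des, the summed skeletal muscle markers, the summed neuron markers (log axis) and the summed contractile genes (vertical axes, CPM) in control arteries C1 to C4 and injured arteries I1 to I4, with control artery 4 as an open diamond. Des and the summed skeletal markers rank the arteries alike within each group. Acta1 is the largest part of the skeletal sum in each artery of both groups. Control artery 4 has the highest neuron sum, 11668 CPM, and the lowest contractile sum of the controls, 19084 CPM.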

How the data were processed

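Whole carotid arteries were sequenced, 4 injured and 4 control, and grouped as the labels name them. The authors deposited counts of reads per gene symbol, without normalization. HISAT2 2.0.4 is named in the submitters' processing notes. The counting tool, its handling of strand and of reads matching several genes, and the genome build are not given in the sources used here. Arteries with 11459632 to 16658089 counts resolve levels down to 0.18 to 0.262 CPM (3 counts).

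Genes were filtered with filterByExpr, scaled with TMM factors and compared with edgeR 4.0.16 (R 4.3.3) by its quasi-likelihood test. A gene was called at a Benjamini-Hochberg FDR under 0.05 over all 14359 genes tested and a fold change above 2, the thresholds in the study's methods. Standard errors were derived from the F statistic, and 95% intervals cover single genes. The scripts were tested on simulated data. Single values and ratios (CPM plus 1) were compared by exact permutation of the artery labels. The labels do not say which arteries share an animal, or that libraries are separate animals within a group, so p-values measure the spread between these libraries.

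DESeq2 1.42.0, other scaling factors and count filters, the replicate number as a block, the FDR alone, a pseudocount of 0.1 CPM and the omission of each artery were tried. Added after seeing the data were the list counts without control artery 4 and the omission of control artery 4 together with injured artery 3. The genes named were the 10 members, the called genes of the machinery and myocardin lists (at most 6 per list by adjusted p), the relatives used in ratios, the 2 most abundant genes of each marker list given and the 6 genes nearest to the members' profile. Members and lists were chosen with earlier results of these data known. Promoter windows were from RefSeq (GRCr8). Lengths of the counted transcripts were not used, so the most abundant markers are those with the highest mean CPM, uncorrected for length. The markers of 1 further cell type are not reported here.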

Additional observations from a re-analysis of the deposited data

Results flagged for a closer look

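Values are given here where 1 artery of a group of 4 lay far from the rest, with a gap to its nearest neighbour, as a share of the group's range, above Dixon's critical value for 4 samples. Of 82 groups of values examined 7 met this, 3 of them through control artery 4, while chance would give about 4.1. The summed dense body, focal adhesion and costamere genes were 9718 CPM in control artery 4 and 18502 to 19730 CPM in the other controls (gap 0.877 of the range). In the injured group the same sum was 7657 CPM in artery 3 and 8818 to 9040 CPM in the others (0.84). Summed neuron markers stood apart in control artery 4, at 11668 CPM (a gap of 1 after rounding), and in injured artery 3, at 3241 CPM (0.939). The Acta2 to Actg1 log2 ratio was 5.30 in injured artery 1 and 5.77 to 5.80 in the other injured arteries (0.94). Cnn1 to Acta2 was -3.05 in injured artery 1 and -3.43 to -3.38 in the others (0.857). Des to Acta2 was -6.34 in control artery 4 and -6.19 to -6.18 in the other controls (0.903), a gap of 0.14 on the log2 scale. No single contractile gene met this by its own level.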

How the results depend on the processing

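The median log2 fold change of the 10 contractile genes stayed negative and moved by less than 1 SD of the 10 values under all alternatives. The number called, with the share of all genes called lower, was 8 with DESeq2 (3.24%), 7 with RLE factors (2.74%), library totals (1.73%), the members left out of the scaling (2.56%) or at least 10 counts in every sample (2.37%), and 5 with upper-quartile factors (2.06%, Tagln and Mylk lost) or no count filter (1.35%, Acta2 and Tagln lost). The FDR alone gave the same 7, but the share of all genes under the FDR alone was not counted, so this 7 has no background beside it. The number called was 1 to 9 with each artery left out in turn, and the cause was not tested. With the replicate block it was 3 (Cnn1, Actg2 and Synpo2), beside 1.63% of all genes called lower. After removal of the group means, arteries 1 to 4 of both groups correlated with their namesakes at 0.406, 0.515, -0.612 and -0.464. Only number 2 correlated best with its own number. Control artery 4 and injured artery 3 stood apart from their groups in neuron markers, so these correlations cannot decide whether equal numbers are pairs. The study used the right artery as the self-control, but the labels do not say that equal numbers share an animal. The block is therefore given as an alternative. For the ratios the block leaves the mean difference unchanged by construction, so it could not test the direction. Its smallest possible exact p was 0.125. Scaling by library totals moved the median of all genes from -0.06 to 0.12, and the log2 fold change of Des turned from -0.08 to 0.12; with each artery left out Des ranged from -0.3148 to 0.04657. Tagln to Acta2, at -0.002, ranged from -0.068 to 0.068 with each artery left out. Of the single members' values, 38 lost the call under an alternative with the direction kept, and 4 gained it. The pair of Myh11 and Myh9, not reported, was the 1 ratio that lost its unadjusted p. Depth did not limit the members, the lowest of which had 80.5 CPM in its lowest library.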

Other observations

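Genes of the X chromosome were nearly all listed at 0. Of 606 protein-coding symbols that the GRCr8 annotation places on X and that the table holds, 592 (97.7%) had 0 counts in every library, against 1541 of 16016 autosomal symbols (9.62%). Among the genes sought here Flna, Dmd, Fhl1, Elk1 and Foxo4 were of this kind, and Lmod2, on chromosome 4, was also at 0. A value of 0 for these X-linked genes therefore says nothing about their level in the artery, and the filamin, dystrophin and FHL1 part of the contractile apparatus was not measured. Myh9, a non-muscle myosin gene, had 2 to 13 counts per library.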
